A study of Homo sapiens with 5 samples.

Results

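Human embryonic stem cells were differentiated toward GnRH neurons, and 9 genes were followed. They were the 7 insulin-like growth factor binding proteins, IGFBP1 to IGFBP7, and the type 1 and type 2 IGF receptors, IGF1R and IGF2R. They were chosen by gene symbol, as 9 of the 36601 genes listed at D0, D5 and D10 and of the 33538 listed at D22, D24 and D26, and each symbol matched 1 gene in all 8 libraries. The cells were of the wild-type human embryonic stem cell line WA09, and RNA was counted in single cells on the 10x Genomics droplet platform as unique molecular identifiers (UMIs). D0 cells were undifferentiated. D5_dSMADi and D10_dSMADi cells had received dual SMAD inhibition with dorsomorphin and SB431542, and D5_XAV939 and D10_XAV939 cells the same with 10 μM XAV939, given from day 0 to day 10. XAV939 blocks tankyrase and so stabilizes the complex that degrades β-catenin. The D22, D24 and D26 cells had no XAV939. They had dual SMAD inhibition, then FGF8, with a freeze and a thaw in that stage, and then the Notch inhibitor DAPT. Each condition was 1 library of 1 cell line with no replicate, so no test was possible. All intervals are at a level of 95%, cover counting error only, and say nothing of the spread between cultures.

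IGF1 and IGF2 act through IGF1R, a receptor tyrosine kinase that signals by way of the insulin receptor substrates to PI3-kinase and AKT, and promote survival and growth of neural progenitors. The secreted binding proteins hold IGFs outside the cell, prolonging their life and limiting or guiding their access to the receptor, and proteases such as PAPPA cleave several of them to release the ligand. IGFBP7 binds IGFs only weakly. IGF2R, the cation-independent mannose 6-phosphate receptor, carries IGF2 to the lysosome for degradation and does not signal as IGF1R does.

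In the GENCODE annotation of GRCh38, 4 of the genes form neighboring pairs. IGFBP2 (chr2:216632828-216664436, plus strand) and IGFBP5 (chr2:216672105-216695549, minus strand) lie tail to tail 7668 bases apart, and IGFBP1 (chr7:45888360-45893660, plus strand) and IGFBP3 (chr7:45912245-45921874, minus strand) lie tail to tail 18584 bases apart, with 0 protein-coding genes between them in both cases. The others are IGFBP4 (chr17:40443450-40457725), IGFBP6 (chr12:53097436-53102345), IGFBP7 (chr4:57030773-57110385), IGF1R (chr15:98648539-98964530) and IGF2R (chr6:159969082-160113507). On the opposite strand, IGFBP7 overlaps POLR2B and IGFBP7-AS1, IGFBP5 overlaps DIRC3-AS1, IGF1R overlaps SYNM-AS1 and IGF2R overlaps AIRN.

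A TATA-like hexamer near the usual place of a TATA box was found at IGFBP3, IGFBP4 and IGFBP5. It was not found at the 4 other members with an entry (IGFBP1 and IGFBP7 had no entry). The set printed does not follow the size of the differences. IGFBP6, left out, differed more than IGFBP4 from D0 to D5_dSMADi and between the arms at D10. The sequences just before the transcription start are shown for IGFBP2, IGFBP3, IGFBP4, IGFBP5 and both receptors. Each is the stretch from 40 to 11 bases before a RefSeq start in GRCh38.p14, and capitals mark such a hexamer, of the 3 spelled out after the sequences, on the strand of the gene.
IGFBP3 (chr7:45921283-45921312, minus strand): ccccggcttcTATATAgcggccggcgcgcc
IGFBP4 (chr17:40443410-40443439, plus strand): ccagggaccggTATAAAgtccgggggagcc
IGFBP5 (chr2:216695560-216695589, minus strand): ggggccggcTATTTAaaagcgcctgctctc
IGFBP2, first start (chr2:216632788-216632817, plus strand): ggggcacttagggttctcataggttgtagt
IGFBP2, second start (chr2:216633380-216633409, plus strand): gaagccggccctttaggacccggctgcggc
IGF1R (chr15:98648499-98648528, plus strand): gtgtgcgcgggccagggcgcgcgcgcgcgc
IGF2R (chr6:159969042-159969071, plus strand): ccgggcggctgtcacgtgacgcggttccgg
Among 35116 promoters, 2.97% held TATAAA in this stretch, 1.05% TATATA and 1.84% TATTTA, counted on either strand. The share with any of the 3 was not computed, so the members are not set against it. Of the 250 bases before the start, G and C made up 61.2% at IGFBP5, with 8 CpG dinucleotides, 76.0% at IGFBP3, with 32, and 81.2% at IGF1R, with 48. IGFBP6, not printed, and the third IGFBP2 start also held none of these hexamers. In the window from 250 bases before to 50 after the start, CTTTGA, the core letters bound by TCF and LEF factors, was searched on both strands and was found in 0 of the 9 windows of the 7 members with an entry, and in 12.9% of all promoters. GGGCGG, the GC box, was found in 7 of the 9, and in 45% of all promoters. The promoter of IGFBP5, the member whose difference between the arms changed direction, is given whole up to its start, with the hexamer in capitals:
IGFBP5 (chr2:216695550-216695799, minus strand): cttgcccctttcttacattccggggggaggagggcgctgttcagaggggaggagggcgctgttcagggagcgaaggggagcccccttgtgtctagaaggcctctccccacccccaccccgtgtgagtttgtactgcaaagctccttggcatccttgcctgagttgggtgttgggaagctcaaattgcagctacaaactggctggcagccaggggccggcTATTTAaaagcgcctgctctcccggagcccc

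Between 1009 and 2815 cells per condition were kept from the D0 to D10 pool, with a median of 24290.5 to 69455 UMIs per cell, and between 9107 and 11056 at D22 to D26, with a median of 7180 to 12179. The libraries held 58073098 to 130440502 UMIs. The 5 conditions of the pool were tagged with oligonucleotides and run together, the tag of the condition was the highest in all barcodes of each, and they shared 0 barcodes. A pool split by its tags gives both results, so they do not check the split. Libraries from different runs shared 1 to 37. D22 to D26 came from other runs, another release of the counting software with other gene models, and another way of dissociating the cells, so no fold was computed between D10 and D22, and any order or likeness over all 8 libraries is a description in which run and stage cannot be told apart. The 7 pluripotency markers summed to 5749 UMIs in 1000000 at D0 and 668 to 946 at D5 and D10. Of the markers of other cell types, the mesenchymal DCN had 0 to 15 UMIs in a library, the endothelial PECAM1 1 to 12, the epithelial TP63 0 to 3 and KRT5 0 in all 8. Others on the same lists were abundant, such as KRT18 (487 UMIs in 1000000), EPCAM (261) and KDR (29.1) at D0 and COL1A2 (25.9) in D10_dSMADi.

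Levels are UMIs in 1000000 UMIs of the cells kept (CPM). UMIs are counted at the 3′ end of transcripts and do not scale with length, so levels were also compared between genes. The binding proteins together reached 689 CPM at D0, 1606 in D5_dSMADi, 959.8 in D5_XAV939, 1439.9 in D10_dSMADi, 1481 in D10_XAV939, 2328 at D22, 317 at D24 and 121 at D26. IGFBP2 supplied most of this in every library. Its share was lowest in D10_XAV939, at 55.5%, where IGFBP3 made up 15.8% and IGFBP5 27.4%, and highest at D24, at 98.2%. At D0 the second member was IGFBP4, with 12.3% of the UMIs of binding proteins, and from D5 on it was IGFBP5. Thus the arms with and without XAV939 differed at D10 by little in the sum and by more in its makeup.

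**Figure D1:**
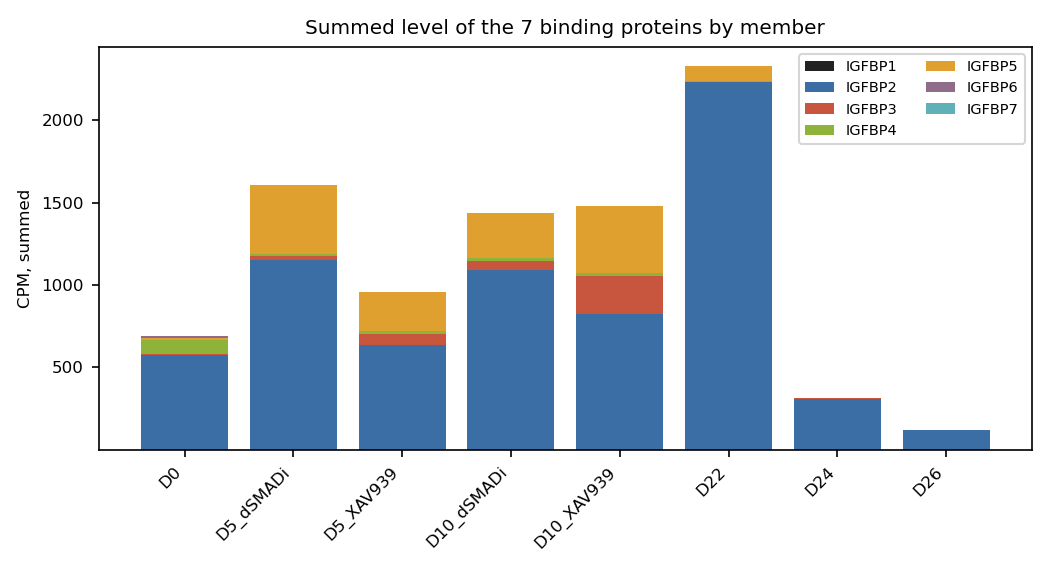
Summed level of the 7 binding proteins in each library, in CPM, stacked by member. The bars run from 121 CPM at D26 to 2328 CPM at D22, and the bar of D10_XAV939 holds the largest part of IGFBP3, 233 CPM.

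IGFBP2, a major binding protein of cerebrospinal fluid, stood at 575 CPM at D0, 1154 in D5_dSMADi, 634 in D5_XAV939, 1094 in D10_dSMADi, 822 in D10_XAV939, 2233 at D22, 311 at D24 and 118 at D26. It was the gene of rank 89 at D22 and of rank 115 to 241 in the pool, counted from the most abundant, and of rank 1378 at D26. Both arms with XAV939 lay below their counterparts with dual SMAD inhibition alone. With each cell thinned to 10000 UMIs, IGFBP2 was found in at least 98.9% of the cells of each pooled condition. The median per cell was 11 UMIs in D5_dSMADi and 6 in D5_XAV939, and 11 in D10_dSMADi and 8 in D10_XAV939. The arms thus differed in the number per cell, while the share of cells with the transcript was near its ceiling in both.

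IGFBP3, the main carrier of IGFs in blood, was at 6.41 CPM at D0, 19.7 in D5_dSMADi, 69.3 in D5_XAV939, 54.3 in D10_dSMADi and 233 in D10_XAV939. It had 1.48 CPM at D22, and 0.0998 at D24 and 0.0704 at D26 came from 7 UMIs each. In the pool each later day was above the earlier one in both arms, and at each day XAV939 was above dual SMAD inhibition alone. The share of cells with a UMI, after thinning to 10000 UMIs, was 6.74% at D0, 15.4% (14 to 16.9) in D5_dSMADi, 41.2% (39.4 to 43.1) in D5_XAV939, 30.1% (28.3 to 32.0) in D10_dSMADi and 66.4% (64.3 to 68.4) in D10_XAV939. Without thinning these shares were 31.6%, 33.6%, 67.5%, 50.2% and 81.5%. Droplets of 1 run can share free RNA, and no cell type that surely lacks IGFBP3 was found in it, so no background share could be set. The D0 share is no substitute, since thinning reduces free RNA more in its deeper cells, and without thinning it was near that of D5_dSMADi. The 17 neuron-like cells of D10_dSMADi had 0 UMIs of IGFBP3, which allows up to 10.5 CPM. The cells of both D10 libraries were unequal in IGFBP3. After thinning, the median cell of D10_XAV939 had 1 UMI and the highest 25. The variance there was 4.51 times the mean, against 1.69 for IGFBP2 and 3.24 for IGFBP5. Without thinning, the 1% of cells with most UMIs of IGFBP3 held 15.4% of them in D10_dSMADi and 7.09% in D10_XAV939. Unequal levels were thus not particular to the arm with XAV939, and the 2 measures put the arms in opposite order.

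IGFBP5, which binds matrix and bone mineral as well as IGFs, was at 11 CPM at D0, 415 in D5_dSMADi, 239.5 in D5_XAV939, 270.0 in D10_dSMADi and 406 in D10_XAV939. On days 22, 24 and 26 it stood at 91.6, 4.76 and 2.03 CPM. From D0 to D5_dSMADi it was 37.7-fold higher (35.2 to 40.4), the largest fold between D0 and D5_dSMADi among the members. The D0 level was 21.3 CPM with a stricter filter on cells, against 372 in D5_dSMADi, which is a smaller fold. At D0 the 1% of cells with most UMIs of IGFBP5 held 25.6% of its 837 UMIs, so the interval of this fold is too narrow. D0 shared a run with conditions far higher in IGFBP5, and the part of free RNA in its D0 level was not tested. The order of IGFBP5 between the arms turned round: it was lower with XAV939 at D5 and higher at D10. From D5 to D10 it was 1.54-fold lower without XAV939 and 1.69-fold higher with it. After thinning, it was found in 90.9% of D5_dSMADi, 78.1% of D5_XAV939, 79.6% of D10_dSMADi and 89.2% of D10_XAV939 cells (98.2%, 94.2%, 93.9% and 96.1% without thinning), beside 7.33% at D0 (43.5% without thinning).

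**Figure D2:**
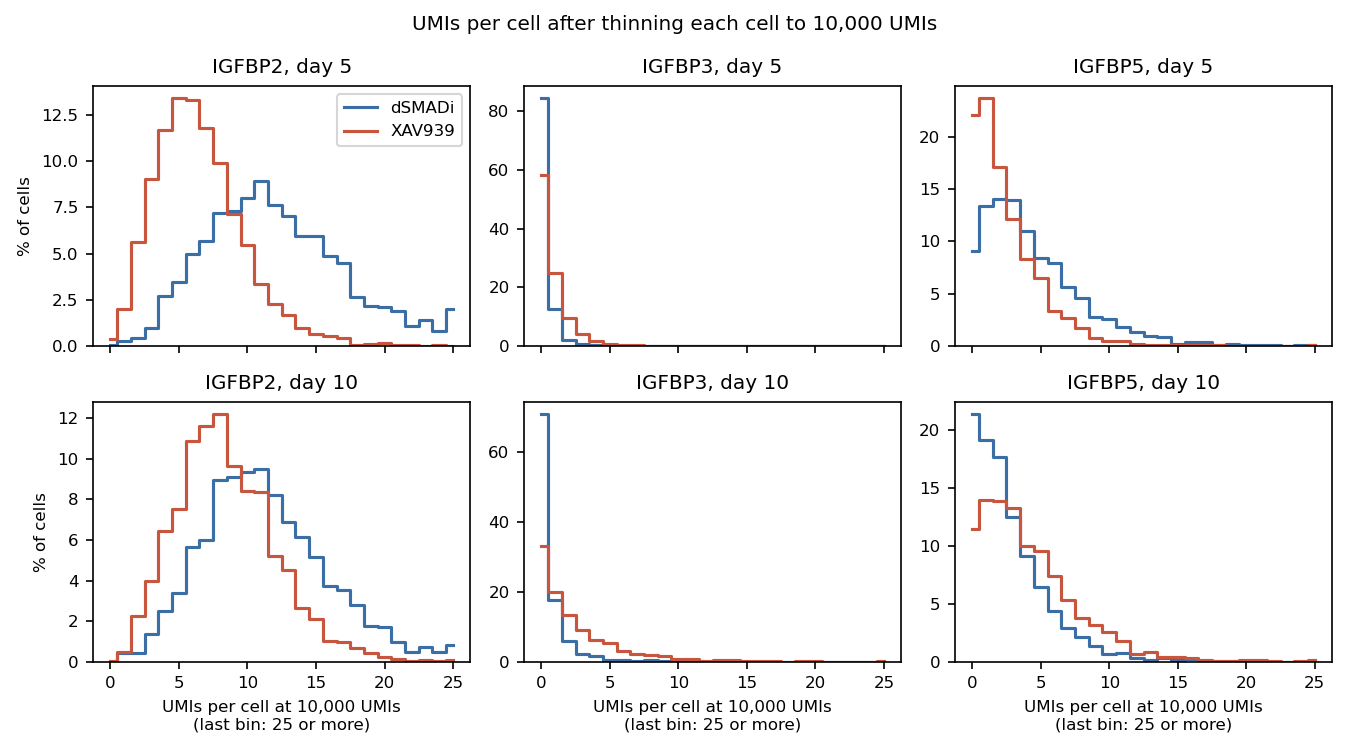
UMIs of IGFBP2, IGFBP3 and IGFBP5 per cell (horizontal axis) after each cell was thinned to 10000 UMIs, as a percentage of the cells of each condition (vertical axis), at D5 and D10 without (blue) and with XAV939 (red). The IGFBP2 curve lies lower with XAV939, with a median of 11 UMIs without and 6 with XAV939 at D5, while IGFBP3 has a long tail in D10_XAV939, and the 2 curves of IGFBP5 changed places between the days.

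The remaining binding proteins were lower. IGFBP4, an inhibitor of IGF action and the main substrate of PAPPA, had 84.6 CPM at D0, 16.1 in D5_dSMADi, 15.9 in D5_XAV939, 18.0 in D10_dSMADi, 17.5 in D10_XAV939, 1.51 at D22, 0.299 at D24 and 0.0603 at D26. It was thus highest in undifferentiated cells, 5.25-fold above D5_dSMADi, and the intervals of the arms overlapped at both days. IGFBP6, which prefers IGF2, had 11.3 CPM at D0, 0.740 in D5_dSMADi, 0.761 in D5_XAV939, 1.05 in D10_dSMADi, 0.499 in D10_XAV939, 0.368 at D22, 0.185 at D24 and 0.171 at D26. Its level in D5_dSMADi was 15.3-fold below that at D0. IGFBP7, a matrix-associated relative, had 0.290 CPM at D0, 0.477 in D5_dSMADi, 0.438 in D5_XAV939, 2.21 in D10_dSMADi, 1.05 in D10_XAV939, 0.345 at D22, 0.242 at D24 and 0.191 at D26. Its highest level, in D10_dSMADi, came from 174 UMIs. IGFBP1, the binding protein of liver and decidua, had 2 UMIs at D0, 3 in D5_XAV939, 1 in D10_XAV939 and 0 in the other 5 libraries, where 3 UMIs would be 0.0230 to 0.0428 CPM. It was not detectable above a few molecules at this depth.

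The receptors varied far less. IGF1R had 47.0 CPM at D0, 53.2 in D5_dSMADi, 58.9 in D5_XAV939, 48.1 in D10_dSMADi, 50.2 in D10_XAV939, 58.9 at D22, 58.6 at D24 and 84.3 at D26. Within the pool D0, D10_dSMADi and D10_XAV939 were neighbors in order, each with an interval that overlapped the next. Among the later libraries those of D22 and D24 overlapped. IGF2R had 43.9 CPM at D0, 27.9 in D5_dSMADi, 38.2 in D5_XAV939, 41.1 in D10_dSMADi, 48.1 in D10_XAV939, 46.5 at D22, 23.4 at D24 and 32.1 at D26. It was lowest in D5_dSMADi within the pool and at D24 among the later libraries. From D22 to D26 IGF1R was 1.43-fold higher and IGF2R 1.45-fold lower, while IGFBP2 was 18.9-fold lower (log2 -4.24, -4.27 to -4.21) and IGFBP5 45.1-fold lower (log2 -5.49, -5.70 to -5.29). As a mean over cells, which gives cells equal weight, IGFBP5 at D26 was 1.11 in place of 2.03 CPM. IGFBP3 and IGFBP4 were 21-fold and 25-fold lower between these days, from 193 to 7 and from 197 to 6 UMIs.

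**Figure D3:**
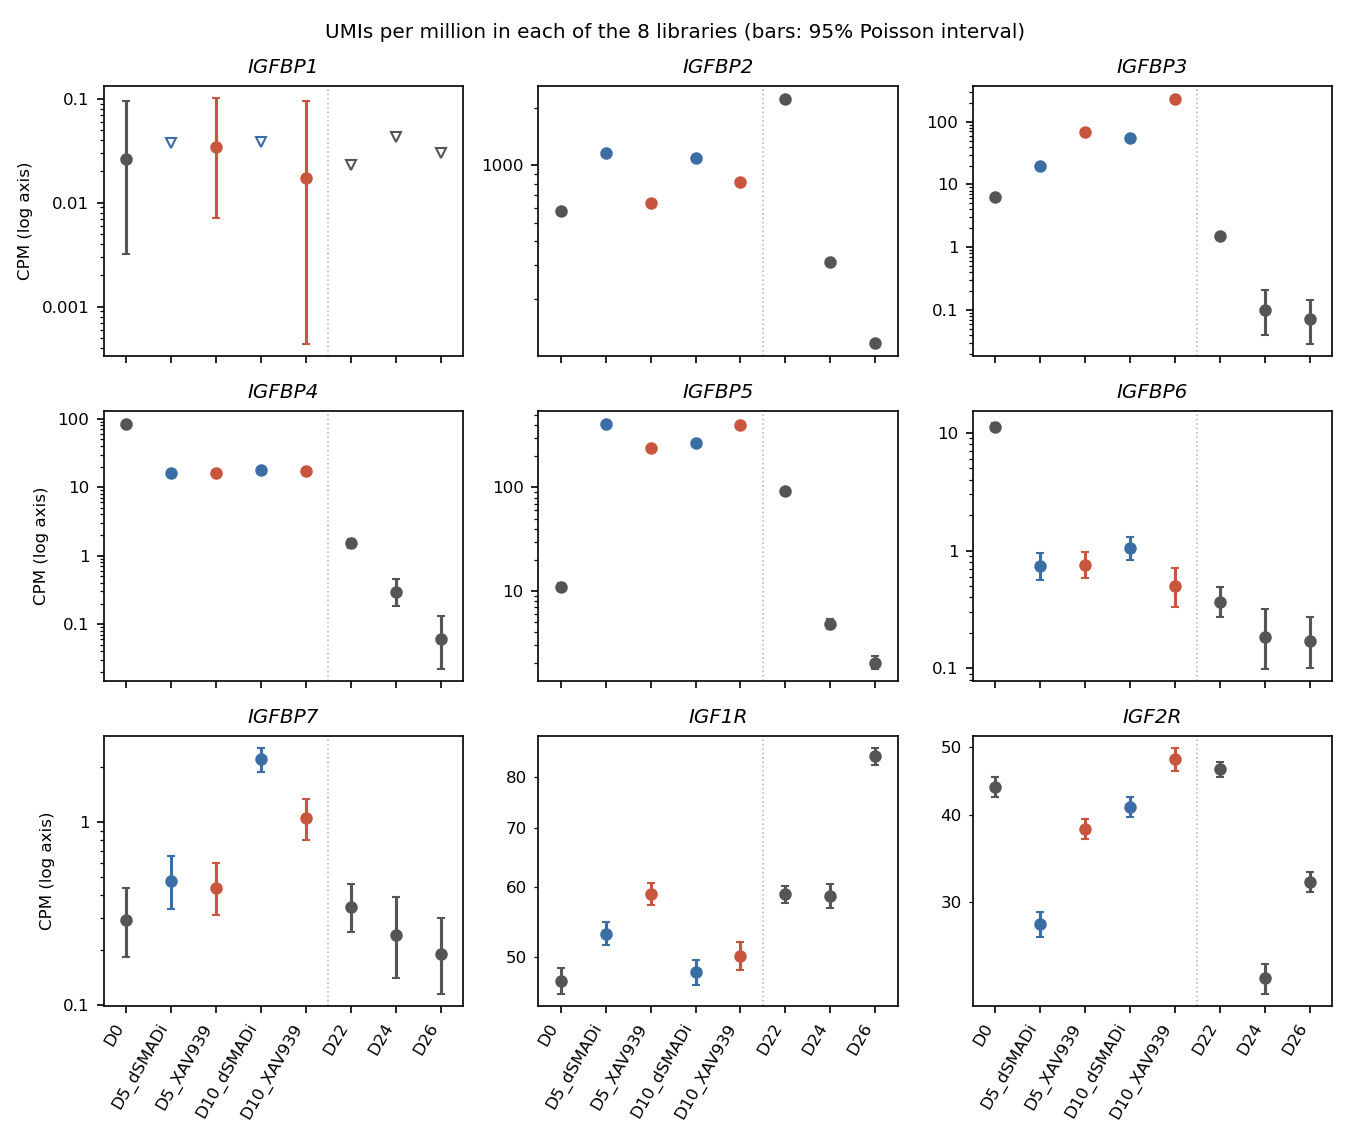
Level of each member in the 8 libraries, in CPM on a log axis, with the 95% Poisson interval. D0 and D22 to D26 are gray, dSMADi blue and XAV939 red, an open triangle is the limit of 3 counts where a library had 0, and the dotted line parts the pool from the later runs. IGFBP2 and IGFBP5 were 18.9-fold and 45.1-fold lower at D26 than at D22, while IGF1R lay between 47.0 and 84.3 CPM throughout.

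The next comparison asked how levels of the members differed when the Wnt inhibitor XAV939 was added during the first 10 days. A gene was called apart where its ratio was at least 1.5-fold, among genes with at least 100 UMIs over both libraries. At D5, 1 of the 7 members so counted was higher with XAV939, IGFBP3, and 2 were lower, IGFBP2 and IGFBP5. Among all 14331 genes counted, 5.68% were higher and 3.92% lower. At D10, 2 of 8 members were higher, IGFBP3 and IGFBP5, and 2 lower, IGFBP6 and IGFBP7, beside 6.03% higher and 8.36% lower among 14418 genes. The median log2 ratio of the members was 0.04 at D5 and 0.01 at D10, and that of all genes 0.05 and 0.01, so the members did not move one way as a group. IGFBP1 was not counted at either day, nor IGFBP7 at D5, which had 38 UMIs in each arm.

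By size, IGFBP3 was 3.52-fold higher with XAV939 at D5 (3.33 to 3.72) and 4.30-fold higher at D10 (4.15 to 4.45). IGFBP2 was 1.82-fold lower at D5 (log2 -0.86, -0.88 to -0.85) and 1.33-fold lower at D10 (log2 -0.41, -0.43 to -0.40), the latter short of 1.5-fold. IGFBP5 was 1.73-fold lower at D5 (log2 -0.79, -0.82 to -0.77) and 1.5-fold higher at D10 (log2 0.59, 0.56 to 0.61), which is at the threshold. It lay below it, at 0.35 to 0.56 on the log2 scale, under 4 alternatives: scaling without mitochondrial and ribosomal protein genes, the mean over cells, thinning, and cells other than dividing ones. IGFBP6 and IGFBP7 were 2.11-fold and 2.10-fold lower at D10 (log2 -1.74 to -0.45 and -1.52 to -0.64), on 29 against 83 and on 61 against 174 UMIs. Their log2 ratios were -2.15 to -0.84 and -1.73 to -0.70 over the alternatives, all beyond 1.5-fold, and where an alternative did not call them they had under 100 UMIs. IGFBP4 differed by -0.02 (-0.13 to 0.09) at D5 and -0.05 (-0.16 to 0.07) at D10 on the log2 scale. Of the receptors, IGF1R differed by 0.15 (0.09 to 0.21) and 0.06 (-0.01 to 0.13), and IGF2R by 0.45 (0.38 to 0.53) and 0.23 (0.15 to 0.30), none reaching 1.5-fold.

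**Figure D4:**
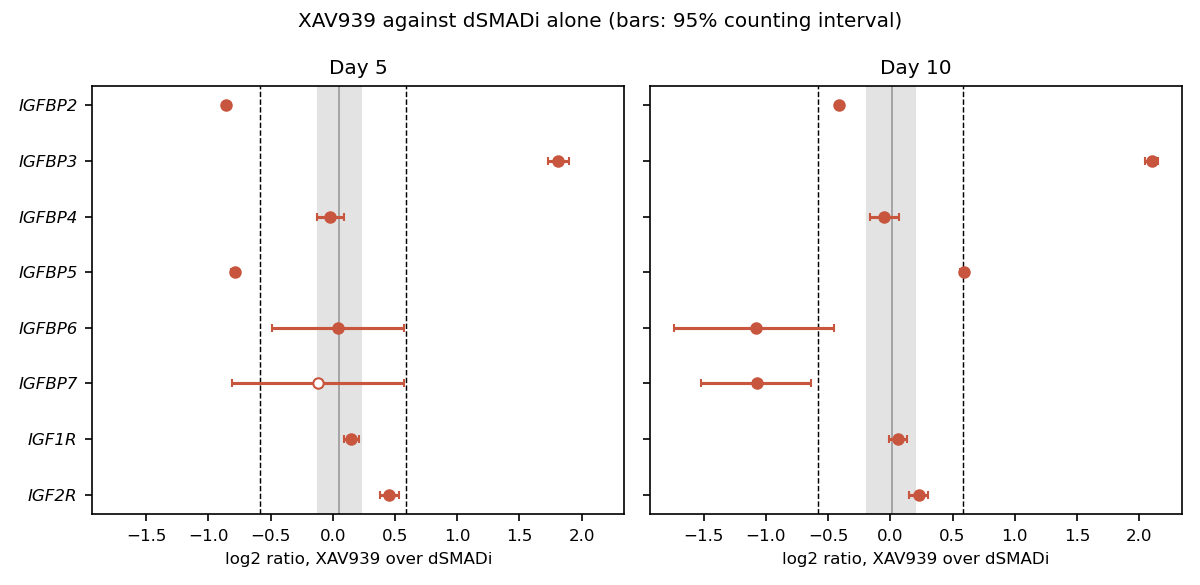
Log2 ratio of each member, XAV939 over dSMADi alone, at D5 and D10 (horizontal axis), with the 95% counting interval. Dashed lines mark 1.5-fold, the gray band the range between the quartiles of all genes counted and its line their median, and an open point a member with under 100 UMIs. IGFBP3 lies at 1.81 and 2.10, to the right of the dashed line at both days, and IGFBP5 changes side from -0.79 to 0.59.

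The arms also differed in how many cells were dividing, and members differed between dividing and other cells. Cells with at least 0.1% of their UMIs in 8 mitotic genes made up 49.7% of D5_XAV939 against 39.3% of D5_dSMADi, and 61.7% of D10_XAV939 against 52.4% of D10_dSMADi. This division was chosen after the data were seen. IGFBP3 in D10_XAV939 was at 183 CPM in dividing and 347 in other cells, and IGFBP5 in D5_dSMADi at 289.6 and 535. Within dividing cells the log2 ratio of IGFBP3 was 1.89 at D5 and 2.63 at D10, and within the others 1.85 and 1.96. That of IGFBP2 was -0.77 and -0.34 in dividing and -0.93 and -0.50 in other cells. IGFBP5 kept its direction in both kinds, at -0.55 in dividing and -0.84 in other cells at D5, and at 0.88 and 0.35 at D10, so that it passed 1.5-fold at D5 only in the other cells and at D10 only in dividing ones. The part of the share of dividing cells in the ratios of the whole libraries was not tested.

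Lists of markers of other cells differed between the arms too. The 8 neuronal markers summed to 36.0 CPM in D10_dSMADi and 167 in D10_XAV939, with 7 and 8 of them above 1 CPM. The 7 epithelial ones summed to 418 CPM without and 255 with XAV939 at D5 and to 341 and 212 at D10, with 4 above 1 CPM in each library, mostly KRT8, KRT18 and KRT19, and with TP63 and KRT5 at or near 0. The 8 mesenchymal ones summed to 43.7 CPM in D10_dSMADi and 13.9 in D10_XAV939, with 4 and 3 above 1 CPM and DCN at 0 and 1 UMI. COL1A1, COL1A2 and PDGFRB were lower with XAV939, and LUM (1.05 and 3.31 CPM) and PDGFRA (0.508 and 0.861 CPM) were higher. IGFBP6 and IGFBP7 were lower in the same library as the collagens, and the part of these lists in the results for the members was not tested. Nearly all D10 cells were in clusters named neural progenitor-like, 2103 of the 2168 cells in D10_XAV939 in 1 such cluster. IGFBP3 was at 238 CPM there, and at 76.6 and 23.1 CPM in the 2 such clusters of D10_dSMADi. Neuron-like cells, 17 in D10_dSMADi and 61 in D10_XAV939, were lower in IGFBP2, IGFBP3 and IGFBP5, while the intervals of IGFBP4 and IGFBP6 overlapped those of the progenitor-like clusters. In the 61 cells IGFBP2 was at 638 CPM, IGFBP3 at 48.5 (38.0 to 61.1) and IGFBP5 at 100.4 (85.0 to 118), and the 17 cells had 119 UMIs of IGFBP2, 0 of IGFBP3 and 3 of IGFBP5. IGF1R was higher in the 17 cells, at 102 CPM (71.7 to 142) from 36 UMIs, against 45.7 and 50.8 in the progenitor-like clusters of D10_dSMADi. In the 61 cells it was at 60.7 CPM (48.8 to 74.6), which overlapped the 49.9 (48.1 to 51.8) of the progenitor-like cluster of D10_XAV939.

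A pair of further lists was read beside the members. Of 7 feedback targets of β-catenin, 4 were counted at each day. AXIN2, the most used of them, had 4.63 CPM in D5_dSMADi and 4.13 in D5_XAV939, and 4.24 in D10_dSMADi and 3.22 in D10_XAV939 (log2 -0.17 and -0.40), and NKD1 was 1.76-fold higher with XAV939 at D5. None was apart by 1.5-fold at D10. Of the 40 other genes of the IGF pathway, 34 were counted at D5, with 2 higher, 2 lower and a median log2 ratio of 0.18, and 35 at D10, with 5 higher, 4 lower and a median of -0.02. Among all genes counted, 5.68% were higher and 3.92% lower at D5 and 6.03% and 8.36% at D10, so the shares of the list at D5 were near those of all genes.

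Among the pathway genes, the ligands were at most traces. IGF1 had 0 to 25 UMIs in a library, IGF2 0 to 28 and INS 0 to 27. At D22 to D26 another row of the gene list also carries the symbol IGF2, and it was not counted here. The list of these days also holds the read-through model INS-IGF2, with 0 UMIs. The level of IGF2 on these days is uncertain, since reads that fit both of 2 gene models can be lost in counting. IGFBPL1, a relative of the binding proteins, was 1.51-fold higher with XAV939 at D5 and 1.61-fold at D10. PIK3R3, a regulatory subunit of PI3-kinase, was 1.71-fold and 2.22-fold higher, from 145 to 248 CPM at D5 and from 99.8 to 222 at D10. At D10 the adaptor IRS2 (2.22-fold), the protease PAPPA2 (2.90-fold, on 79 against 37 UMIs) and PTPRZ1, a receptor phosphatase reported to bind IGFBP2 (1.52-fold), were also higher. STC2, an inhibitor of PAPPA, was 2.39-fold lower at D5, and H19, the imprinted neighbor of IGF2, was 3.14-fold and 3.69-fold lower on few UMIs. The proteases ADAM28 (11.6-fold, on 6 against 94 UMIs) and ADAM12 (1.5-fold) and the adaptor GRB14 (1.98-fold) were lower at D10.

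At D22 to D26 the cells were sorted into classes by clusters built without the members and the pathway list. Classes were proliferating progenitor-like (PNP-like), nonproliferating progenitor-like (NNP-like), glutamatergic neuron-like (Glut-like), GnRH and GABA neuron-like (GnRH-GABA-like) and IRX-expressing (IRX-like), the first led by mitotic genes and the fourth by GNRH1 and DLX genes. Cells left without a name made up 0.0315% at D22, 0.450% at D24 and 3.20% at D26. D22 was 67.9% NNP-like and 14.6% PNP-like, D24 87.7% Glut-like and D26 78.9% Glut-like and 15.6% GnRH-GABA-like. Different clusters held most of a class on different days, namely 6, 1 and 0 for Glut-like at D22, D24 and D26, 9 and 4 for GnRH-GABA-like at D24 and D26, and 7 and then 8 for IRX-like. A cluster that was mostly 1 library may be that library and not a type. Of the NNP-like clusters, number 3, with 2719 cells of D22, held 23.7% dividing cells.

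IGFBP2 at D22 was 2706 CPM in NNP-like, 1750.0 in PNP-like, 1444 in IRX-like, 661 in Glut-like and 688 in the 41 GnRH-GABA-like cells (1163 in the 193 cells so named when D22 was clustered alone), and NNP-like cells held 76.6% of its UMIs. It was 4.10-fold lower in Glut-like than in NNP-like cells and 1.55-fold lower in PNP-like (log2 -0.63, -0.64 to -0.61). The GnRH-GABA-like cells held 308 CPM at D24 beside 309.8 in Glut-like cells, and the part of free RNA in these near-equal levels was not tested. The IRX-like cells, at 324 CPM, were 99 cells of cluster 7 at 697 and 430 of cluster 8 at 205 (189.9 to 222). At D26 GnRH-GABA-like cells were at 151 CPM and Glut-like cells at 107. The IRX-like cells, at 171 CPM, were 14 cells of cluster 7 at 732 and 242 of cluster 8 at 108 (95.5 to 122), and the class was at 108 with D26 clustered alone. Within Glut-like cells IGFBP2 was 2.13-fold lower at D24 than at D22 and 2.89-fold lower at D26 than at D24, and within GnRH-GABA-like cells 2.04-fold lower at D26 than at D24. In the whole libraries the same steps were 7.17-fold and 2.63-fold. The cells of a class came from different clusters on each day, and in cluster 7, present on all 3 days, IGFBP2 was at 1453, 697 and 732 CPM. GnRH-GABA-like over Glut-like cells, its log2 ratio was -0.01 (-0.09 to 0.07) at D24 and 0.49 (0.43 to 0.56) at D26.

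IGFBP5 was unequal among the late cells. A single cluster, numbered 7 and IRX-like, led by SFRP2, PTX3, WLS and CTGF and with a high score for mitotic genes as well, held 27.3% of the IGFBP5 UMIs of D22 in 6.54% of its cells, 47.9% of those of D24 in 1.09%, and 68.3% of those of D26 in 0.127%. Doublet scores were high in 9.31% of its cells at D22 and in 0 at D24 and D26. Its level was 338 CPM (326 to 349.8) in 623 cells at D22, 156 (133 to 182) in 99 cells at D24 and 513 (431 to 606) in 14 cells at D26. Few cells carry the last value, and intervals over UMIs are then too narrow. With D26 clustered alone no cluster led by SFRP2 or WLS was formed, and IGFBP5 in IRX-like cells of D26 was 0.402 CPM, against 52.6 with the days together and 53.5 to 65.5 in the other alternatives. The other IRX-like cluster, 8, led by CRABP1, ROBO3 and SST, was at 7.15 and 0.836 CPM at D24 and D26. PNP-like and NNP-like cells had 81.9 and 77.6 CPM at D22, and Glut-like cells 7.78, 1.03 and 0.493 CPM on the 3 days. GnRH-GABA-like cells had 1 UMI in 41 cells at D22, 0 in 533 at D24, which allows up to 0.805 CPM, and 3 in 1720 at D26. These values depended on the clustering: the class had 13.4 to 23.8 CPM at D22 in 3 of 5 other clusterings, and 9 CPM at D26 with each library clustered alone, and 0 at D24 in all of them.

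The same cluster 7 held 89.1% of the IGFBP3 UMIs at D22, at 17.8 CPM (15.2 to 20.7), where NNP-like cells had 0.133, and 66.7% of the 21 IGFBP4 UMIs at D24. Only 0.725% of the 9523 cells of D22 had a UMI of IGFBP3. Few cells of the cluster thus carry this level, and its interval is too narrow. The level of IGFBP2 in cluster 7 was above that of Glut-like cells on each of the 3 days. IGFBP4 was otherwise highest in PNP-like cells at D22, at 3.37 against 0.643 CPM in NNP-like cells (log2 2.39, 1.88 to 2.91). This ratio was 2.36 to 3.71 over the alternatives, the highest at resolution 1.0, where NNP-like cells were at 0.246 CPM. Dividing cells made up 36.6% of cluster 7 at D22, 50.5% at D24 and 21.4% at D26, and 99.8% of the PNP-like cells. The part of division in these levels was not tested.

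The receptors differed less between classes. IGF1R was 53.2 CPM in PNP-like, 58.3 in NNP-like, 66.8 in IRX-like, 68.4 in Glut-like and 84.5 (60.6 to 115) in the 41 GnRH-GABA-like cells at D22. Between D24 and D26 it was 1.47-fold higher in Glut-like and 1.31-fold higher in GnRH-GABA-like cells. IGF2R was 1.59-fold lower in PNP-like than in NNP-like cells at D22 (log2 -0.67, -0.78 to -0.56), and lower in GnRH-GABA-like than in Glut-like cells at D24 (17.0 against 23.8 CPM, log2 -0.48, -0.83 to -0.15) and at D26 (25.6 against 33.4 CPM, log2 -0.39, -0.53 to -0.24). IGF1R differed between these classes by -0.03 (-0.22 to 0.15) at D24 and by -0.20 (-0.29 to -0.12) at D26.

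**Figure D5:**
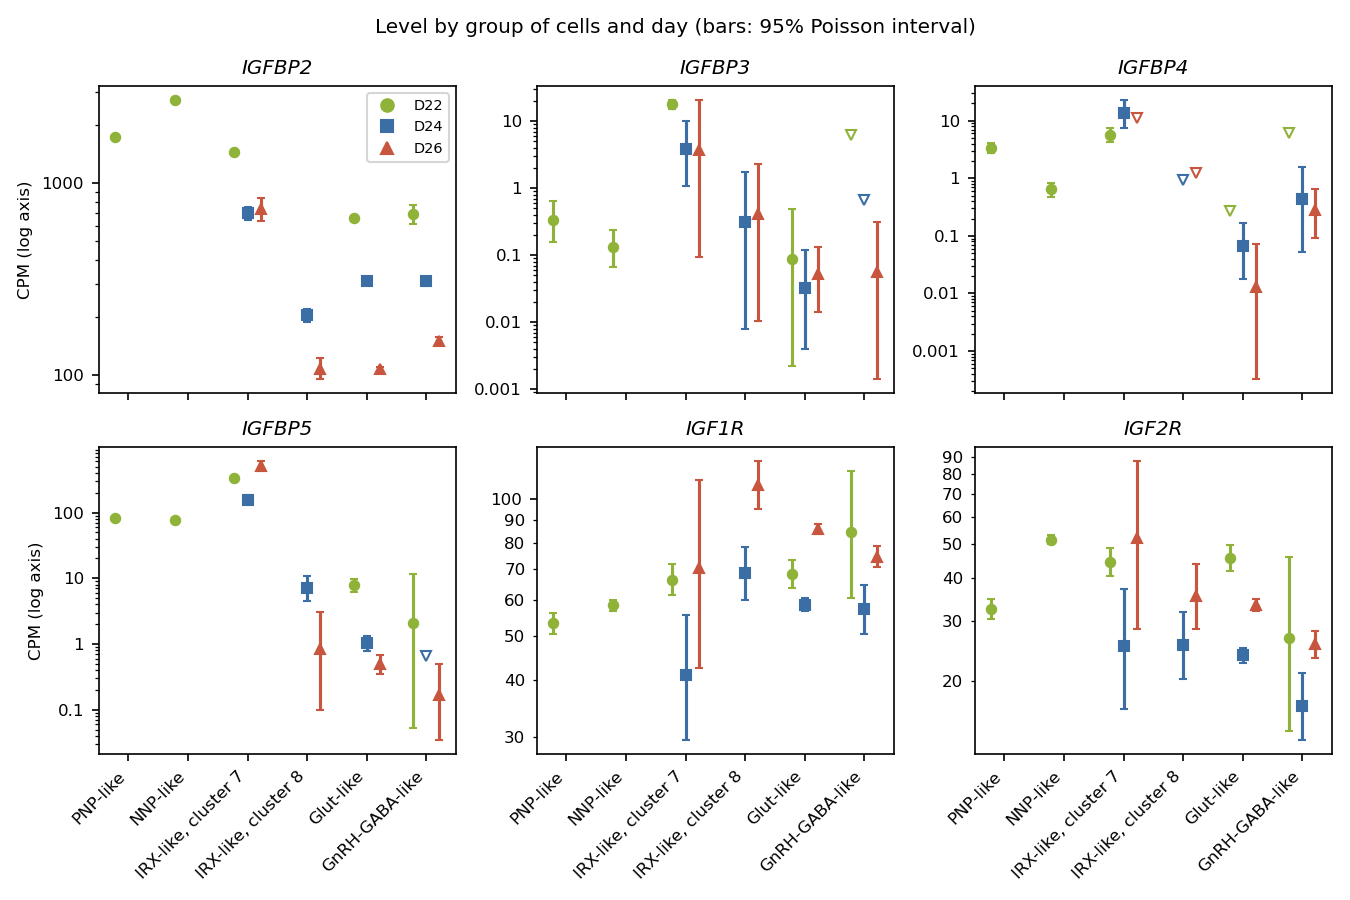
Level of 6 members by group of cells and day at D22, D24 and D26, in CPM on a log axis, with the 95% Poisson interval. Open triangles are the limit of 3 counts where a group had 0. IGFBP5 lies between 156 and 513 CPM in cluster 7, from 14 cells at D26, and is at 0.493 CPM in Glut-like cells at D26.

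For each member with at least 20 CPM in 1 library, the 3 genes whose levels followed it most closely over the 8 libraries were sought by Pearson's r of log2(CPM + 10) among 8389 genes. They were ZFAND1 (0.978), DTWD1 and WFIKKN1 for IGFBP2, NCOA5 (0.974), DDIT4 and REC8 for IGFBP3, SMIM3 (0.999), PAIP2B and TEAD4 for IGFBP4, and SOX21 (0.988), CREM and CCDC144NL-AS1 for IGFBP5. For the receptors they were FAM117B (0.983), PFKM and SS18L1 for IGF1R, and HILPDA (0.948), TPR and SDHC for IGF2R. Of the members themselves, IGFBP4 and IGFBP6 (0.84) and IGFBP3 and IGFBP5 (0.79) were the closest pairs. IGFBP6 never reached the limit of 20 CPM. It was at 11.3 CPM at D0 and at most 1.05 CPM in any other library, so its r rests mostly on D0. These values of r rest on 8 libraries, 5 of which share a run and 3 another way of processing, and describe them only. Within cells of a condition at equal depth, Spearman's rho between IGFBP2, IGFBP3 and IGFBP5 was -0.03 to 0.14. Most cells were at 0 for IGFBP3 at D22. There IGFBP5 was found in 56.5% of the few cells with IGFBP3, which is 13 cells, and in 8.81% of the 9500 without. Cluster 7, high in IGFBP5, held 89.1% of the IGFBP3 UMIs of D22, and its part in this difference was not tested.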

How the data were processed

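Single-cell RNA of 8 conditions was measured with 10x Genomics 3′ chemistry. The authors deposited whole-number counts of UMIs per gene and cell, made with Cell Ranger against GRCh38. The file headers give version 6.1.2 for D0 to D10, which list 36601 genes, and 3.1.0 for D22 to D26, which list 33538, whereas the labels state 3.1 for all. D0 to D10 cells were dissociated with Accutase, tagged and pooled in 1 run, and D22 to D26 cells were dissociated with papain. The columns of per-cell values were all used.

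Cells were kept by the limits of the study for each library on UMIs (at least 1500 to 30000), genes (at least 1000 to 5000), mitochondrial share and complexity. The complexity limit of 0.85 stated for D0 left 1 cell and was not applied to that library, which leaves 1009 cells. The cell numbers stated by the study equal the deposited barcodes, before these limits, in 4 pooled conditions, and lie within 1 of the cells kept at D0. Doublets stayed in, and scores above 0.25 marked 1.90% to 5.95% of cells. Free RNA was not corrected.

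UMIs were summed over the cells of a library or class and divided by all their UMIs, with exact Poisson intervals (95%). For a ratio, the share of the UMIs of both libraries that came from the first was given an exact binomial interval, which was turned into bounds of the ratio. All intervals take UMIs as independent, and understate the error of values carried by a few cells. Genes at or under 3 UMIs in both conditions have no ratio. D22 to D26 cells were clustered together on 2000 variable genes, 30 principal components and 20 neighbors with Leiden at resolution 0.5 (0.3 for D0 to D10), without the members and the pathway list. Classes were named from lists of markers by a mean score of at least 0.5, with a lead of 0.3 over the next class or a marker among the 10 leading genes. This scoring rule, the split by dividing cells and the leaving out of single clusters were chosen after the data were seen. The members, the pathway list and the marker lists were chosen with earlier results of these data known. The genes named are all members, the ligands and the genes of the pathway and feedback lists at least 1.5-fold apart, AXIN2, and the 3 genes most like each member with at least 20 CPM in 1 library. The marker lists for neural crest and endothelium summed to 2.35 to 55.7 and to 0.623 to 31.7 CPM per library. The calculation of ratios was tested on simulated counts. These were independent Poisson counts, as the intervals assume, so the test does not cover the greater spread between real cells. Positions and sequences were taken from RefSeq and the annotation of GRCh38 in the reference tables, where IGFBP1 and IGFBP7 had no promoter entry. Software was Python 3.11.15, numpy 2.4.6, scipy 1.17.1, pandas 2.3.3, scikit-learn 1.9.0, python-igraph 0.11.9, leidenalg 0.10.2 and matplotlib 3.10.9.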

Additional observations from a re-analysis of the deposited data

Results flagged for a closer look

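IGFBP5 differed in direction between the days under the same contrast. The log2 ratio of XAV939 over dual SMAD inhibition alone was -0.79 (-0.82 to -0.77) at D5 and 0.59 (0.56 to 0.61) at D10, each from 1 library against 1 library. The difference between the days was not tested, since no condition had a replicate.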

How the results depend on the processing

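No paired analysis was possible because each condition was 1 library and the labels give no shared replicate numbers. No library could be left out for the same reason. No ratio of XAV939 over dual SMAD inhibition of at least 1.5-fold changed sign under the alternatives run. Between GnRH-GABA-like and Glut-like cells at D26, IGFBP5 went from -1.55 on the log2 scale, on 3 against 38 UMIs, to 4.15 with each library clustered alone, and IGFBP6 from 0.85 to -0.14 with doublets left out. The number of members at least 1.5-fold apart at D5 was 3 and became 1 (IGFBP3) at a limit of 2-fold. At D10 it was 4 and became 1 (IGFBP3) with each cell thinned, which leaves fewer UMIs to count, and 1 (IGFBP3) in other than dividing cells, an alternative chosen after the data were seen. In both, IGFBP6 and IGFBP7 had under 100 UMIs and IGFBP5 was under 1.5-fold. IGFBP5 at D10, 0.59 on the log2 scale, fell short of 1.5-fold with the scaling without mitochondrial and ribosomal protein genes, with the mean over cells, after thinning and in other than dividing cells, with a range of 0.35 to 0.88 over all alternatives. IGFBP3 ranged from 1.75 to 1.93 at D5 and from 1.96 to 2.63 at D10, and IGFBP2 from -0.93 to -0.77 and from -0.50 to -0.34. Of 360 values of levels in the libraries, 108 left the counting interval. Scaling without mitochondrial and ribosomal protein genes raised those of D5_dSMADi most, IGFBP2 from 1154 to 1755 CPM, IGFBP3 from 19.7 to 30 and IGFBP5 from 415 to 632. Size factors by the median of ratios shifted all genes by -0.03 at D5 and 0.01 at D10. IGFBP2 in GnRH-GABA-like over Glut-like cells at D26, 0.49, was 0.61 with each library clustered alone. In PNP-like over NNP-like cells at D22, -0.63, it was -0.83 at resolution 1.0, -0.59 with each library clustered alone, -0.74 with doublets left out and -0.60 with the members kept in the clustering. The cause was not tested. Of 108 values of class ratios under the other ways of clustering, 92 stayed within the counting interval, and 3 more alternatives gave no value for lack of UMIs. Depth limits IGFBP1, IGFBP6 and IGFBP7, and IGFBP3 and IGFBP4 at D24 and D26, where each had 6 to 21 UMIs.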

Other observations

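The levels of 3 other genes of the IGF pathway list are given here, chosen after their values were seen. INSR, the insulin receptor, was at 19.2 CPM at D0, 7.93 to 13.9 in the libraries of D5 and D10, 28.8 at D22, 81.4 at D24 and 76.8 at D26. IGFBPL1, a relative of the binding proteins, was at 16.6 to 30 CPM in the pool, 157 at D22, 139.8 at D24 and 40 at D26. PAPPA, the protease that cleaves IGFBP4, was at 0.790 CPM at D0, 5.13 at D22, 18.2 at D24 and 9.71 at D26, while IGFBP4 was at 84.6, 1.51, 0.299 and 0.0603 CPM in the same libraries. Levels before and after D10 come from different runs and gene models, so these are values side by side.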
